A study of Mus musculus with 82 samples.

Results

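Socs1, Socs2, Socs3, Cish, Pim1 and Pim2 are 6 genes that cytokine signals switch on in T cells. They were taken by their symbols from the 21823 genes that all 3 deposited tables share. Their transcripts were followed in T cells whose receptor recognizes ovalbumin: OT-I, of the CD8 lineage, and OT-II, of the CD4 lineage. Each C57BL/6 recipient got both kinds of cell, and they were sorted apart again from its pooled spleen and lymph nodes. The recipients were given saline, 5 µg of OVA (unmodified ovalbumin) or pGal-OVA (here pGal), an ovalbumin carrying synthetic sugars, and the cells were taken 4 days after that.

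The prophylactic groups received antigen 1 day after the transfer, and each library pooled 3 mice in 1 of 2 labelled batches. There were 5 libraries each of OT-I saline, OVA and pGal, 5 of OT-II saline, 5 of OT-II pGal and 4 of OT-II OVA. The therapeutic groups, saline controls included, were immunized under the skin with OVA in complete Freund's adjuvant the day after the transfer and were treated 1 month later, with 1 mouse per library. Libraries used here numbered 6 for saline, 8 for OVA and 8 for pGal in OT-I cells, and 6, 6 and 8 in OT-II cells. The labels give the amount of pGal both as 5 µg and as a molar equivalent, and which applies is not settled here. Every group holds transferred cells of a single receptor specificity in a host that keeps its own lymphocytes. In bulk samples of this kind, fewer cells that carry a transcript and less of it per cell cannot be told apart.

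Cytokines such as IL-2, IL-7, IL-4 and IL-6 bind receptors that activate Janus kinases (JAK), which phosphorylate STAT transcription factors. STAT factors then induce Socs and Cish genes, whose SH2-domain proteins bind the receptor or the kinase and damp the same signal, and Pim genes, whose serine/threonine kinases promote survival and growth. In T cells CIS, the product of Cish, is known as a target of IL-2 and STAT5 that also restrains T cell receptor signalling. SOCS1 restrains interferon-γ and common γ chain cytokines, SOCS3 restrains IL-6 type signals, and SOCS2 is best known for restraining growth hormone.

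The genes lie apart in the genome (GRCm38, GENCODE M21 annotation). Socs1 (ENSMUSG00000038037) is at chr16:10782240-10785536 on the minus strand, Socs2 (ENSMUSG00000020027) at chr10:95385362-95417180 on the minus strand, and Socs3 (ENSMUSG00000053113) at chr11:117966079-117970047 on the minus strand. Cish (ENSMUSG00000032578) is at chr9:107296026-107302784, Pim1 (ENSMUSG00000024014) at chr17:29490753-29496112 and Pim2 (ENSMUSG00000031155) at chrX:7878262-7883432, all on the plus strand. The values are whole-gene levels with no split by transcript.

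STAT dimers are known to bind sites of the form TTCNNNGAA, a motif that reads the same on both strands. Promoter windows from RefSeq (GRCm38.p6, 250 bases before to 50 after each start) were found for 5 of the 6 genes, with 6 windows in all. Cish and Socs3 held the motif, and 8.3% of all 32851 windows held at least 1. The Cish stretch carries 2 motifs within 30 bases, beginning at bases 1 and 12 when the start is counted as base 1, and 0.457% of all windows held 2 or more. The Socs3 motif begins 154 bases before the start. The windows of Socs1, Pim1 and Pim2 held none of these letters. The Cish stretch spans the RefSeq start and lies inside the annotated span of the gene, which begins further upstream. Its place relative to single annotated transcripts is not given here. The stretches are shown because these 2 genes carry the motif and have some of the largest differences described here, and capitals mark the motif.
Cish, chr9:107296654-107296683, plus strand: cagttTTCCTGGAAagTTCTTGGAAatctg
Socs3, chr11:117969502-117969531, minus strand: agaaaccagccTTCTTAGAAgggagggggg

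Each of the 82 libraries held 21.2 to 68.2 M estimated counts (M, mega). Cd4 and Cd8a, which encode the co-receptors of the 2 lineages, went against the label in 11 of 53 therapeutic libraries: 6 labelled OT-I had Cd4 at 424 to 1373 CPM (counts-per-million) and Cd8a at no more than 2.72 CPM, and 5 labelled OT-II had Cd8a at 799 to 1271 CPM and Cd4 at no more than 4.12 CPM. By their labels these were saline libraries 3 and 6, pGal libraries 5 and 7 and OVA libraries 6 and 8 of OT-I cells, and saline library 3, pGal libraries 5 and 7 and OVA libraries 6 and 8 of OT-II cells. They were left out, which kept 71 libraries, and the called therapeutic differences of the 6 genes are also given with every library as labelled. All 29 prophylactic libraries had more transcript of the co-receptor their label names, although Cd4 stood at 164 and 197 CPM in 2 OT-I libraries and Cd8a at up to 118 CPM in OT-II libraries. Summed B cell marker transcripts stood at 3553 CPM in OT-II pGal library 3 of batch 1 and at 6607 CPM in OT-II OVA library 2 of batch 2, against group medians of 63.3 and 82.5 CPM. Therapeutic OT-II libraries held summed B cell markers of 204 to 652 CPM after OVA and 175 to 685 CPM after saline, and summed myeloid markers of 37.5 to 73.9 and 45.6 to 243 CPM. All 9 B cell and all 10 myeloid markers were above 0 in each group; whether these transcripts contribute to the values below was not tested.

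Levels per kilobase of transcript (normalized CPM divided by the length of the longest coding transcript) put Pim2 first in 10 of the 12 groups and Socs2 last in all 12. Pim2 averaged 219 ± 29.6 CPM per kb in prophylactic OT-I saline libraries (SD, n = 5). Socs3 had the highest mean in the saline OT-II libraries of both experiments, at 80.8 ± 41.1 CPM per kb in the prophylactic (n = 5) and 85.5 ± 20.2 in the therapeutic (n = 6). The prophylactic mean includes 1 library at 388 CPM, against 191 CPM in the next, and Pim2 averaged 71.9 ± 11.6 CPM per kb there. Socs2 stayed between 0.683 and 5.18 CPM per kb on average. The plot of levels by library shows all 71.

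**Figure D1:**
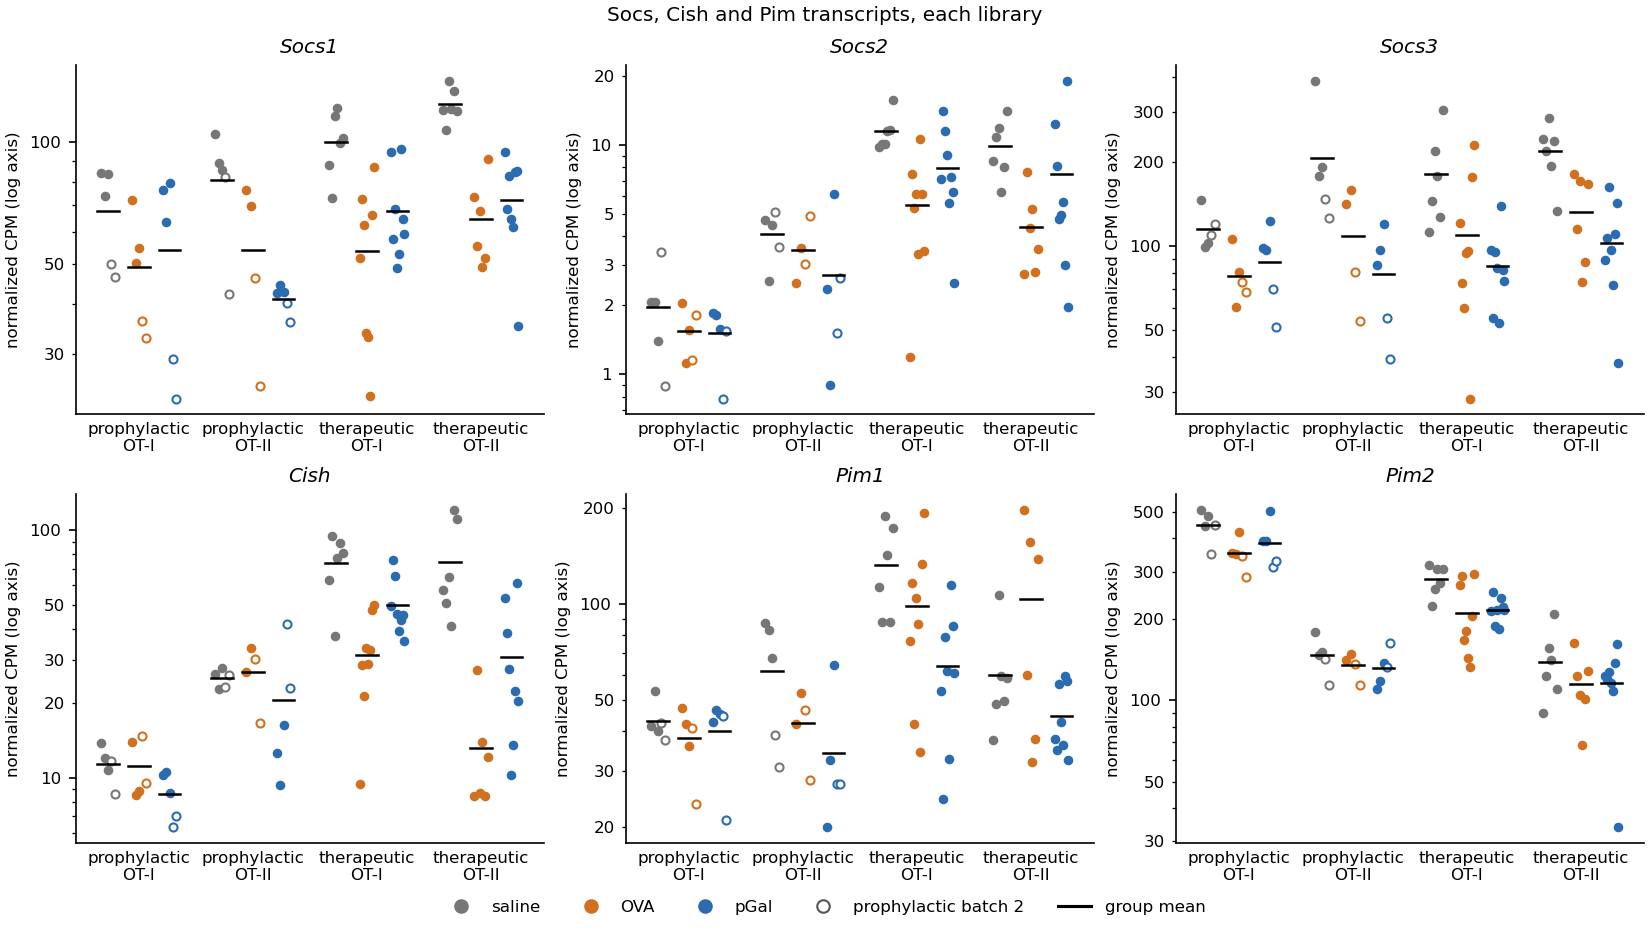
Normalized CPM (log axis) of the 6 genes in each of the 71 libraries, by experiment, cell type and treatment. Points are libraries, open points are prophylactic batch 2 and bars are group means; Cish after OVA in therapeutic OT-II cells lies wholly below saline, and Pim2 in saline OT-I cells lies wholly above saline OT-II cells in both experiments.

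Cish had the largest treatment difference of the 6 genes. In therapeutic OT-II cells its level in the 6 saline libraries ran from 41.1 CPM through a median of 60.9 to 121 CPM. After OVA the 6 libraries ran from 8.46 through 10.4 to 27.4 CPM, so every OVA library was below every saline library. The means were 13.2 ± 7.32 CPM after OVA and 74.2 ± 33.3 CPM after saline (SD, n = 6 each), a ratio of 5.63. Cish fell by 2.52 on the log2 scale (SE 0.42, edgeR adjusted p = 0.00381), and with every library as labelled it was lower by a log2 value of -1.74 (edgeR adjusted p = 0.0654). In the same contrast 2 of the 6 genes were called, both lower, where 1.54% of 14244 genes were called in either direction and 0.927% lower.

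In therapeutic OT-I cells Cish fell as well after OVA. Its saline libraries ran from 37.5 through 79.0 to 94.7 CPM (n = 6), and the OVA libraries from 9.47 through 30.8 to 49.6 CPM (n = 8). The groups overlapped only through the lowest saline library, and all 8 OVA libraries were below the saline median. Means were 73.7 ± 20.8 and 31.5 ± 13.1 CPM, a log2 change of -1.29 (SE 0.23, edgeR adjusted p = 0.0061). This was the single gene of the 6 called in that contrast, in which 0.686% of 14581 genes were called and 0.418% lower. The call was lost with every library as labelled (log2 value -1.40, edgeR adjusted p = 0.0953). Median summed marker levels in these OT-I groups were 9.60 CPM after OVA and 37.2 CPM after saline for 4 NK cell genes, and 212 and 50.9 CPM for 6 erythroid and platelet genes. The part of such cells in the Cish difference was not tested.

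After pGal the Cish level lay between the OVA and saline means in both therapeutic cell types. In OT-II cells the 8 pGal libraries ran from 10.3 through 24.9 to 61.0 CPM, with a mean of 30.8 ± 18.4 CPM. Their difference from saline had a log2 value of -1.26 (SE 0.37, edgeR adjusted p = 0.235), and that from OVA a log2 value of 1.25 (SE 0.38, edgeR adjusted p = 0.672). In OT-I cells the 8 pGal libraries ran from 35.5 through 45.8 to 75.9 CPM, with a mean of 50.1 ± 13.6 CPM. The corresponding values were -0.59 (SE 0.23, edgeR adjusted p = 0.669) and 0.69 (SE 0.22, edgeR adjusted p about 1.00). None of these passed the threshold, and the 2 antigen contrasts against saline share their saline libraries.

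In the prophylactic experiment Cish did not follow the treatments in this way. Saline OT-II libraries held 26.4, 22.9 and 27.9 CPM in batch 1 and 23.3 and 26.1 CPM in batch 2. After OVA the values were 26.7 and 33.3 CPM in batch 1 and 30.1 and 16.6 CPM in batch 2. After pGal they were 12.6, 9.38 and 16.3 CPM in batch 1, all below saline and OVA, but 41.8 and 23.0 CPM in batch 2, with both saline libraries between them. The difference between pGal and OVA was -0.44 on the log2 scale over both batches (edgeR adjusted p = 0.63), -1.23 within batch 1 (edgeR adjusted p = 0.0386) and 0.45 within batch 2 (edgeR adjusted p = 0.711). OT-I libraries stayed between 6.31 and 14.8 CPM under all treatments.

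The OVA response of Cish was compared between the experiments with an interaction term. In OT-II cells the prophylactic response exceeded the therapeutic one by a log2 value of 2.57 (SE 0.57, edgeR adjusted p = 0.0696). Without libraries in which the B cell gene Cd79a exceeded 100 CPM this became 2.87 (edgeR adjusted p = 0.0193). How many of all genes were called without those libraries is not given here. In OT-I cells, with those libraries kept, the difference between experiments was 1.25 (SE 0.37, edgeR adjusted p = 0.215). Over 12 such differences between cell types or experiments and all 6 genes, 72 tests, edgeR called 0 and 9 had an unadjusted p under 0.05; other tools were not run on them. Of all genes, edgeR called, between experiments in OT-II cells, 0.0967% for OVA against saline, 0.8% for pGal against saline and 0.232% for pGal against OVA. In OT-I cells these shares were 0.266%, 0.11% and 0%. Between cell types they were, for the same contrasts in turn, 0.0337%, 1.17% and 0.505% in the prophylactic and 0.121%, 0% and 0% in the therapeutic experiment.

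Socs1 was lower than in saline in several antigen groups. In therapeutic OT-II cells its 6 saline libraries ran from 107 through 121 to 142 CPM. The 6 OVA libraries ran from 49.2 through 61.6 to 90.9 CPM and the 8 pGal libraries from 35.3 through 75.6 to 94.6 CPM, so neither antigen group overlapped saline. Means were 124 ± 12.0, 64.8 ± 15.9 and 72.1 ± 18.8 CPM. Socs1 fell by 0.96 after OVA on the log2 scale (SE 0.20, edgeR adjusted p = 0.0144). The call rested on few libraries: the edgeR adjusted p became 0.0548 without OVA library 4, 0.0606 without OVA library 5 and 0.104 without the libraries above 100 CPM of Cd79a. With every library as labelled the log2 value was -1.03 (edgeR adjusted p = 0.0316). After pGal the log2 value was -0.78 (SE 0.18, edgeR adjusted p = 0.1), in a contrast where 0.00702% of all genes were called. There edgeR and limma voom called none of the 6 genes, 3 had an unadjusted p under 0.05 and DESeq2 called Socs1 and Socs3. Over all genes DESeq2 called 169 of 14244 in that contrast.

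In therapeutic OT-I cells Socs1 ran from 72.9 through 101 to 122 CPM after saline, from 23.7 through 57.3 to 86.7 CPM after OVA and from 49.0 through 61.9 to 96.2 CPM after pGal. All 8 OVA and all 8 pGal libraries were below the saline median, and both groups overlapped saline. The OVA difference had a log2 value of -0.93 (SE 0.25, edgeR adjusted p = 0.0747) and was called by DESeq2 (adjusted p = 0.0181). DESeq2 called 367 of 14581 genes in that contrast.

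In prophylactic OT-II cells Socs1 fell after pGal. Saline libraries held 105, 88.8 and 85.5 CPM in batch 1 and 82.2 and 42.2 CPM in batch 2. After pGal they held 42.5, 44.6 and 42.7 CPM in batch 1 and 40.0 and 36.1 CPM in batch 2, a narrow range that only the lowest saline library entered. The log2 change was -0.94 (SE 0.20, edgeR adjusted p = 0.00902), with -1.13 in batch 1 (edgeR adjusted p = 0.00119) and -0.72 in batch 2 (edgeR adjusted p = 0.49). OVA libraries held 76.2 and 69.6 CPM in batch 1 and 46.3 and 25.1 CPM in batch 2, and differed from saline by a log2 value of -0.56 (edgeR adjusted p = 0.558). Between pGal and OVA the log2 value was -0.38 (edgeR adjusted p = 0.46), and it was -0.75 in batch 1 (edgeR adjusted p = 0.0221) and 0.07 in batch 2 (edgeR adjusted p = 0.969).

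Socs3 also fell after pGal in prophylactic OT-II cells, with no overlap. Saline libraries held 388, 178 and 191 CPM in batch 1 and 147 and 126 CPM in batch 2. After pGal the values were 85.8, 96.6 and 120.3 CPM in batch 1 and 55.2 and 39.6 CPM in batch 2. Means were 206 ± 105 and 79.5 ± 32.3 CPM (SD, n = 5 each). The log2 change was -1.41 (SE 0.20, edgeR adjusted p = 0.000755), and -1.22 without the saline library at 388 CPM (edgeR adjusted p = 0.00162). It was -1.34 in batch 1 (edgeR adjusted p = 0.0314) and -1.54 in batch 2 (edgeR adjusted p = 0.169). Socs1 and Socs3 were the 2 of 6 genes called in this contrast, where 11.7% of 14128 genes were called and 5.34% lower.

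After OVA, prophylactic OT-II libraries held 141 and 158 CPM of Socs3 in batch 1 and 80.8 and 53.8 CPM in batch 2, between the pGal and saline means. The log2 difference from saline was -0.87 (SE 0.22, edgeR adjusted p = 0.222), and DESeq2 called it (adjusted p = 0.0126). In that contrast edgeR and limma voom called none of the 6 genes and 0.163% of all genes were called by edgeR. DESeq2 called 147 of 14128 genes there. Library 2 of batch 2, the one richest in B cell transcripts, had the lowest Socs3 and Socs1 values of the OVA group.

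In therapeutic cells Socs3 had a wide spread. Saline OT-II libraries ran from 134 through 228 to 286 CPM, OVA from 74.4 through 141 to 180.3 CPM and pGal from 38.4 through 101.9 to 163 CPM. Saline OT-I libraries ran from 112 through 162 to 306 CPM, OVA from 28.5 through 95.0 to 229 CPM and pGal from 53.3 through 82.9 to 139 CPM. Antigen and saline groups overlapped in both cell types. The largest of these differences were pGal against saline, with log2 values of -1.12 in OT-I cells (SE 0.31, edgeR adjusted p = 0.488) and -1.09 in OT-II cells (SE 0.25, edgeR adjusted p = 0.0957). edgeR called none of the 6 genes after pGal in therapeutic OT-I cells, where 0% of all genes were called. Of the 6, 5 had an unadjusted p under 0.05, a level at which all genes were not counted. DESeq2 and limma voom called none of the 6 there either.

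Socs2 was the lowest of the 6 and was not called in any treatment contrast. In therapeutic OT-I cells it ran from 9.78 through 10.8 to 15.7 CPM after saline and from 1.19 through 5.72 to 10.7 CPM after OVA, a log2 value of -1.13 (SE 0.35, edgeR adjusted p = 0.146). In therapeutic OT-II cells the ranges were 6.24 through 9.70 to 14.1 CPM and 2.76 through 3.93 to 7.63 CPM, a log2 value of -1.21 (SE 0.45, edgeR adjusted p = 0.184). After pGal the means were 7.95 ± 3.62 CPM in OT-I and 7.49 ± 5.67 CPM in OT-II cells. Prophylactic libraries held 0.785 to 6.13 CPM in all groups.

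Pim1 did not share one direction across groups. In therapeutic OT-II cells saline libraries ran from 37.6 through 54.2 to 107 CPM and pGal libraries from 32.5 through 40.2 to 59.7 CPM. The 6 OVA libraries fell into separate sets, with 197, 156 and 139 CPM in libraries 1, 3 and 7 and 59.9, 32.0 and 37.7 CPM in libraries 2, 4 and 5. Libraries 1, 3 and 7 also had the 3 highest values of Socs1 and of Socs3 in that group. The OVA difference from saline had a log2 value of 0.76 (SE 0.36, edgeR adjusted p = 0.312), and that between pGal and OVA a log2 value of -1.18 (SE 0.33, edgeR adjusted p = 0.672). In therapeutic OT-I cells Pim1 ran from 87.6 through 128 to 189 CPM after saline, from 34.5 through 95.3 to 192 CPM after OVA and from 24.6 through 61.2 to 114 CPM after pGal. The pGal difference from saline there was -1.10 on the log2 scale (SE 0.32, edgeR adjusted p = 0.495).

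In prophylactic OT-II cells Pim1 stood at 87.3, 83.0 and 67.9 CPM in batch 1 and 38.8 and 31.0 CPM in batch 2 after saline. After pGal it stood at 20.0, 32.4 and 64.4 CPM in batch 1 and 27.3 and 27.4 CPM in batch 2. The log2 value was -0.78 (SE 0.27, edgeR adjusted p = 0.0851). The pGal library at 64.4 CPM is the one with 3553 CPM of B cell markers, and its summed myeloid marker level was 3027 CPM against a group median of 86.1 CPM. Without that library the log2 value was -1.07 (edgeR adjusted p = 0.0166). The part of other cells in the Pim1 value was not tested.

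No treatment difference of Pim2 was called by edgeR. In prophylactic OT-I cells saline libraries held 509, 445 and 484 CPM in batch 1 and 350.0 and 448 CPM in batch 2. OVA libraries held 353, 349 and 424 CPM and then 344 and 286 CPM, and pGal libraries 389, 391 and 504 CPM and then 313 and 328 CPM. Within each batch every OVA library was below every saline library, while the pGal libraries overlapped saline in batch 1. The log2 difference of OVA from saline was -0.32 (SE 0.10, edgeR adjusted p = 0.0603), and DESeq2 called it together with those of Socs1 and Socs3. edgeR and limma voom called none of the 6 genes in that contrast, where 3 had an unadjusted p under 0.05. Of all genes edgeR called 5.39% there, and DESeq2 called 1356 of 13802. In prophylactic OT-I cells after pGal, edgeR, DESeq2 and limma voom called none of the 6, 3 had an unadjusted p under 0.05, and 3.35% of all genes were called by edgeR.

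**Figure D2:**
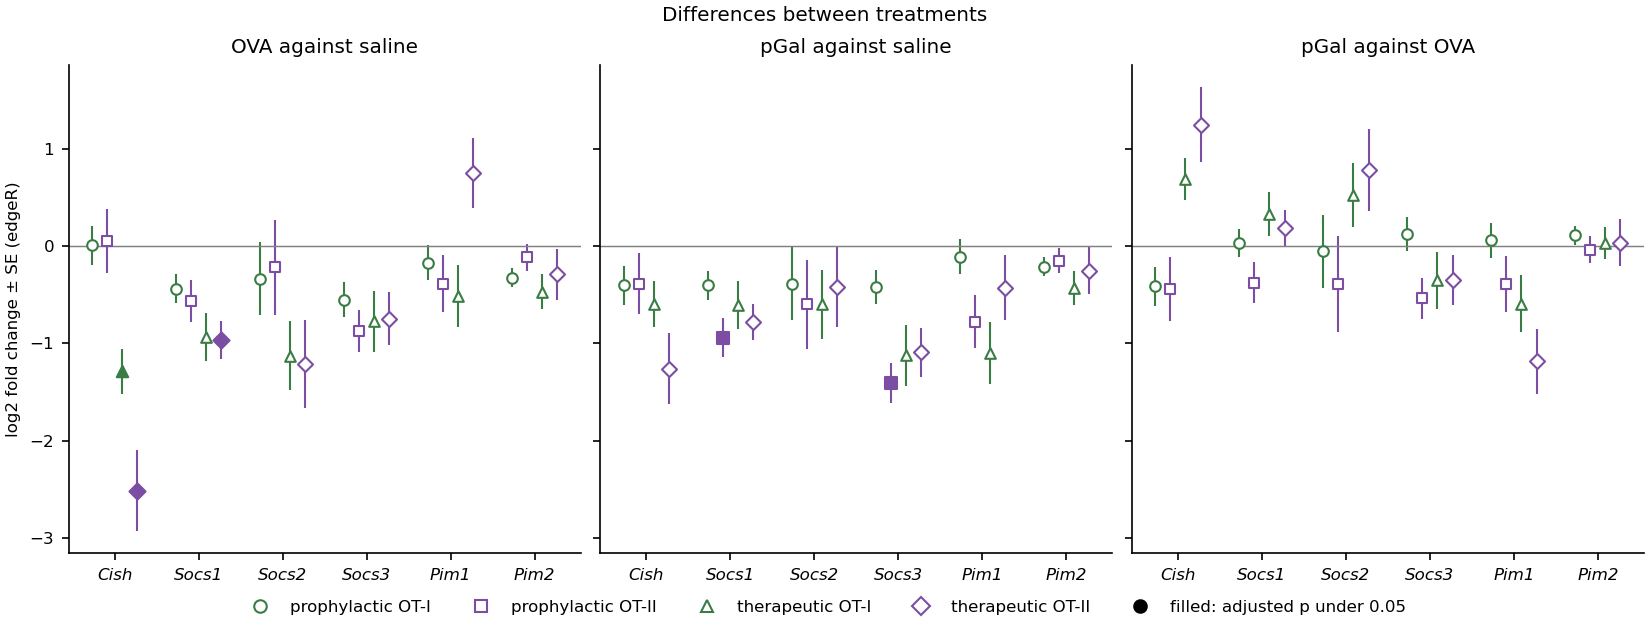
Log2 fold changes (± SE, edgeR) of the 6 genes for OVA against saline, pGal against saline and pGal against OVA, with a symbol for each experiment and cell type and filled symbols at an adjusted p under 0.05. The 5 filled symbols are all below 0 and all against saline; the therapeutic OT-II value of Cish after OVA is the lowest, at -2.52.

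Over the 8 contrasts of an antigen with saline the 6 genes gave 48 log2 values, of which 45 were below 0 and 5 were called, all lower. The exceptions were Cish after OVA in both prophylactic cell types, at 0.01 and 0.06, and Pim1 after OVA in therapeutic OT-II cells, at 0.76. OVA and pGal were each compared with the same saline libraries, so these values are not independent. The median of the 6 genes was -0.85 after OVA in either therapeutic cell type, where the median over all genes tested was 0.05 in OT-I and -0.07 in OT-II cells. After pGal it was -0.69 in prophylactic OT-II cells, against 0.04 over all genes. The median of the 6 was smaller in size in the other contrasts with saline. It was -0.30 after OVA in prophylactic OT-II cells, and -0.33 after OVA and -0.39 after pGal in prophylactic OT-I cells. After pGal in therapeutic cells it was -0.60 in either cell type. How many of all genes lay below 0 was not counted. Between pGal and OVA, 0 of 24 values were called by edgeR, 4 had an unadjusted p under 0.05, the smallest adjusted p was 0.247 (Socs3, prophylactic OT-II), and DESeq2 and limma voom called 0. In that comparison 1.87% of all genes were called in prophylactic OT-II cells and 0% in each of the other 3 settings.

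Levels also differed between the cell types. Each recipient got both kinds of cell, so OT-I and OT-II libraries may share mice, and the fits treat them as independent. Pim2, a kinase that acts in T cell survival, was higher in saline OT-I than OT-II cells in both experiments. Prophylactic OT-II saline libraries held 180.1, 147 and 151 CPM in batch 1 and 143 and 114 CPM in batch 2, all below the 350.0 to 509 CPM of OT-I cells. The means were 447 ± 60.6 and 147 ± 23.7 CPM, a log2 difference of 1.60 (SE 0.12, edgeR adjusted p = 8.9e-10). In the therapeutic experiment the ranges were 223 through 289.9 to 318 CPM in OT-I and 89.6 through 132 to 209 CPM in OT-II cells, again apart, with a log2 difference of 1.04 (SE 0.24, edgeR adjusted p = 0.00248). The 6 libraries labelled OT-I that carry Cd4 had a median Pim2 of 154 CPM and the 5 labelled OT-II that carry Cd8a had one of 204 CPM. With every library as labelled the log2 difference was 0.74 (edgeR adjusted p = 0.62).

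Cish and Socs3 were lower in saline OT-I than OT-II cells of the prophylactic experiment. For Cish the OT-I values were 13.8, 12.0 and 10.7 CPM in batch 1 and 11.7 and 8.58 CPM in batch 2, below all OT-II values of 22.9 to 27.9 CPM in either batch. The log2 difference was -1.16 (SE 0.28, edgeR adjusted p = 0.00418). Socs3 stood at 146, 98.9 and 103 CPM in batch 1 and 109 and 120.2 CPM in batch 2 in OT-I cells, and within each batch these were below the OT-II values given above. Its log2 difference was -0.75 (SE 0.23, edgeR adjusted p = 0.022). This call rested on single libraries: the edgeR adjusted p was 0.103 without OT-II saline library 1 of batch 1, 0.0772 without OT-I saline library 2 of batch 1 and 0.0742 without OT-I saline library 3 of batch 1. With Pim2, 3 of the 6 genes were called, where 18.1% of 14845 genes were called.

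In therapeutic saline cells neither Cish nor Socs3 was called between the cell types, and Cish averaged 73.7 ± 20.8 CPM in OT-I and 74.2 ± 33.3 CPM in OT-II cells. Pim1 was higher in OT-I cells, at 132 ± 43.0 against 60.1 ± 24.2 CPM with overlapping ranges (log2 difference 1.14, SE 0.38, edgeR adjusted p = 0.0466). With every library as labelled its log2 difference was 1.00 (edgeR adjusted p = 0.62), in the fit that called 0 of 15569 genes. The Pim1 call did not hold without saline library 1, 4, 5 or 8 of OT-I cells or 1, 2, 5, 6 or 7 of OT-II cells, each left out alone, with edgeR adjusted p up to 0.114. It was also lost, at 0.0501 to 0.0511, without OVA library 1, 3 or 4 or pGal library 2 or 3 of OT-I cells, or OVA library 7 or pGal library 2 or 3 of OT-II cells. Pim1 and Pim2 were the 2 of 6 genes called, where 9% of 15747 genes were called. Levels were not tested between the experiments, which differ in sorting, freezing and immunization.

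Across the 12 group means each gene had its own order. Cish was highest in the therapeutic saline groups and lowest in prophylactic OT-I cells after pGal, at 8.57 ± 1.91 CPM. Neighbouring groups in its order lay within 1 SD of each other except from therapeutic OT-I saline to OT-I pGal and from there to OT-I OVA. Pim2 had all 6 OT-I groups above all 6 OT-II groups, with steps beyond 1 SD only on either side of therapeutic OT-I saline in the order. Socs1 and Socs3 were both highest in therapeutic OT-II saline libraries. As a description over these 12 means, with no test, the pattern of Cish was most like that of Socs2 among 9585 genes (Pearson r = 0.93), followed by Hist1h4m (r = 0.93). The most similar genes were Smg9 and Trim39 for Socs1 (r = 0.98 and 0.97), Dgat1 and Kmt2e for Socs2 (r = 0.98 and 0.97), and Ccdc77 and Dnajb1 for Socs3 (r = 0.94 and 0.93). For Pim1 they were Ubr2 and Inf2 (r = 0.94 and 0.87), and for Pim2 Nhp2 and Ggt1 (r = 0.99 and 0.98).

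Cytokine receptors were read in the same libraries. Il2ra encodes the α chain of the high-affinity IL-2 receptor and Il7r the α chain of the IL-7 receptor. Il2rb encodes a chain shared by the IL-2 and IL-15 receptors, and Il4ra a chain of the IL-4 receptor. In therapeutic OT-II cells, where Cish and Socs1 fell after OVA, Il2ra fell from 33.9 ± 16.9 to 7.13 ± 5.51 CPM (log2 change -2.27, SE 0.56, edgeR adjusted p = 0.0412). Il7r fell there from 379 ± 123 to 135 ± 40.9 CPM (log2 change -1.52, edgeR adjusted p = 0.00768). In therapeutic OT-I cells, where Cish fell after OVA, Il7r fell from 702 ± 162 to 219 ± 100.3 CPM (log2 change -1.73, edgeR adjusted p = 0.000797). These 2 were the called members of the 23 listed receptors in OT-II cells, and Il7r and Il18r1 (log2 change -1.35), a chain of the IL-18 receptor, in OT-I cells, all lower. Of all genes tested, 0.927% were called lower in OT-II and 0.418% in OT-I cells.

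In prophylactic OT-II cells after pGal, where Socs1 and Socs3 fell, 3 of 23 receptors rose and 5 fell, where 6.37% of all genes tested rose and 5.34% fell. Il2rb rose from 84.7 ± 15.2 to 450.3 ± 88.6 CPM (log2 change 2.38, edgeR adjusted p = 1.04e-05). Il12rb1, a chain of the IL-12 receptor, and Ifnar2, a chain of the type I interferon receptor, also rose, while Il7r fell from 259 ± 17.2 to 101 ± 27.6 CPM (log2 change -1.40) and Il4ra fell from 508 ± 61.6 to 320.5 ± 51.7 CPM (log2 change -0.67). Il18r1, Ifngr2 and Il21r made up the rest of those that fell. Il2, the gene of the cytokine itself, rose from 0.587 ± 0.545 to 5.45 ± 2.45 CPM (log2 change 3.23). In saline prophylactic libraries, where Cish was lower in OT-I cells, Il2ra was also lower there (5.38 ± 3.80 against 20.9 ± 3.95 CPM, log2 difference -1.95) and Il2rb was higher (564 ± 40.9 against 84.7 ± 15.2 CPM, log2 difference 2.73), both called by edgeR. Of the 23 receptors 8 were higher and 2 lower in OT-I cells there, where 18.1% of all genes were called. In therapeutic saline cells, where Cish was not called, 10 were higher and 4 lower, with 9% of all genes called.

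**Figure D3:**
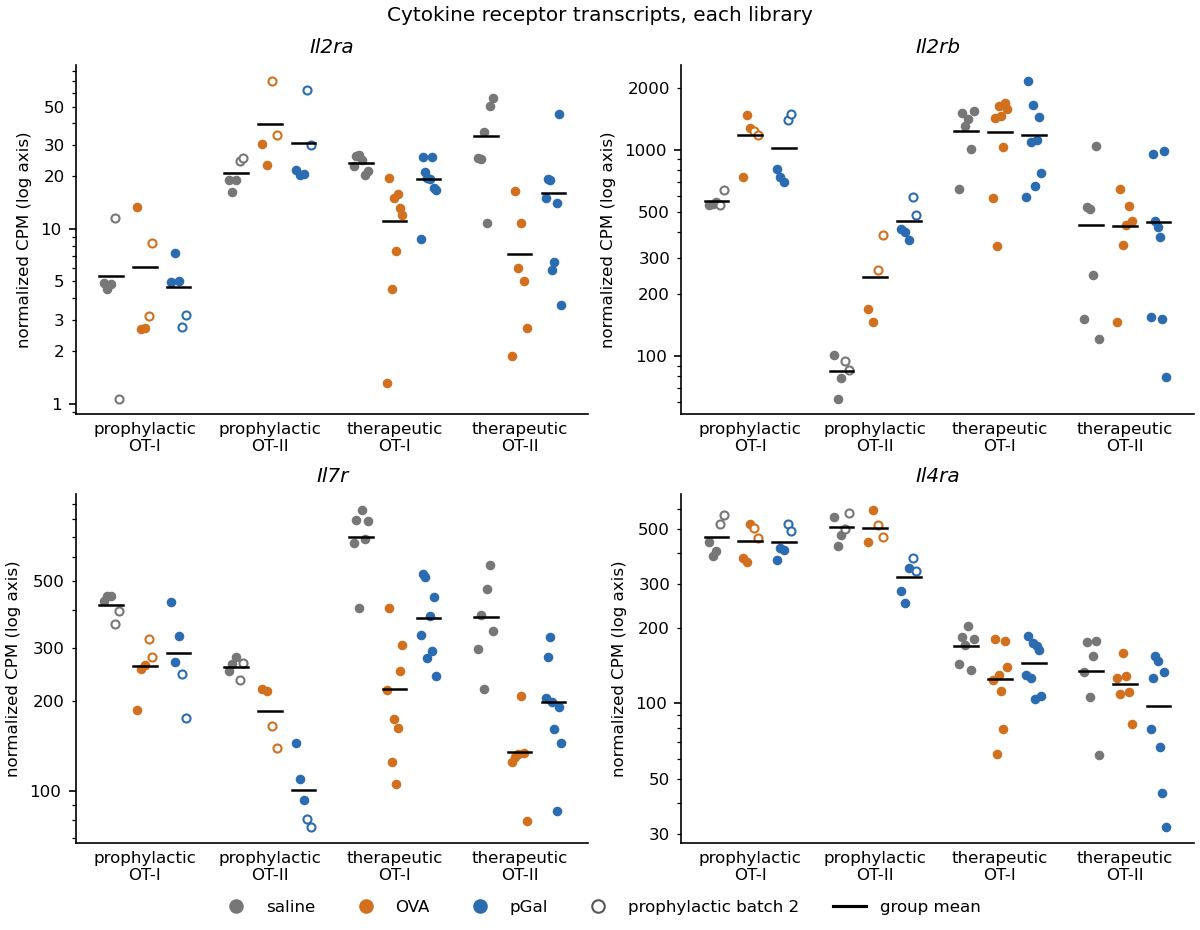
Normalized CPM (log axis) of 4 cytokine receptor genes in each of the 71 libraries, by experiment, cell type and treatment; points, open points and bars as in the plot of the 6 genes. Il2ra and Il7r are lower after OVA than after saline in therapeutic OT-II cells, and Il2rb is higher after pGal than after saline in prophylactic OT-II cells.

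Other genes of the pathway were counted from lists. A list of 14 further genes held Pim3 and inhibitors of cytokine signalling, among them Socs4 to Socs7 and the phosphatase Ptpn6. Of these 14, edgeR called 0 after OVA in either therapeutic cell type, with 1 at an unadjusted p under 0.05 in each. Of all genes it called 0.686% in OT-I and 1.54% in OT-II cells, so a list this short may hold 0 calls at that share. In prophylactic OT-II cells after pGal 1 of the 14 rose (Ptpn11, log2 change 0.92) and 2 fell (Pias1, -0.42, and Ptpn2, -0.43). There, 4 of 11 kinases and STAT factors rose, namely Tyk2, Stat4, Jak3 and Jak2, by log2 values between 0.54 and 0.62. Of all genes tested in that contrast 6.37% rose and 5.34% fell. After OVA edgeR called 0 of the 11 in either therapeutic cell type, at the same shares of all genes as given above. Of the 11, 1 in OT-I and 2 in OT-II cells had an unadjusted p under 0.05. Other tools were not run on these lists. Of 16 listed genes known as STAT5 or STAT3 targets in T cells, 5 fell and none rose after OVA in therapeutic OT-II cells. They were Il2ra, Lta, Tnfrsf4, Osm and Bcl2, the last a survival gene with a log2 change of -1.05. Il2ra is also on the receptor list, so its fall is the one already counted there. The median of the 16 was -0.58, against -0.07 over all genes, of which 0.927% fell. In therapeutic OT-I cells Bcl2 fell alone (log2 change -1.59, edgeR adjusted p = 0.00518), from 264 ± 124 to 90.9 ± 34.3 CPM. There 0.418% of all genes fell. After pGal in prophylactic OT-II cells, where Socs1 and Socs3 fell, 1 of the 16 rose and 2 fell. Their median was 0.11, against 0.04 over all genes. After OVA in prophylactic OT-I cells 3 rose (Bcl2l1, Gzmb and Batf) and 1 fell (Myc), where 5.39% of all genes were called.

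The therapeutic libraries, each of 1 mouse, allowed the genes to be related library by library after the treatment means were subtracted. In each cell type 51 relations were computed, between pairs of the 6 genes and between each of them and 6 receptors, and p-values were adjusted over both cell types together. A permutation test of Pearson's r within treatments gave 9 with an adjusted p under 0.05, all positive, 1 in OT-I and 8 in OT-II cells. Pairs of other genes were not tested, so no share over all pairs stands beside this count. In OT-II cells Cish followed Il2ra over 20 libraries (Pearson r = 0.80, permutation p = 1e-04, adjusted p = 0.0051; Spearman rho = 0.83, permutation p = 7e-05, adjusted p = 0.00357). Without the 2 libraries farthest from the median of Cish, r was 0.70, and without those above 100 CPM of Cd79a it was 0.66 (n = 15). In OT-I cells the same relation had r = 0.66 over 22 libraries (permutation p = 0.0156, adjusted p = 0.0732; Spearman rho = 0.43, permutation p = 0.0592, adjusted p = 0.202), and r was 0.41 without the 2 farthest libraries. Cish did not follow Il7r in OT-II cells (r = 0.21, permutation p = 0.426, adjusted p = 0.641; Spearman rho = 0.17, permutation p = 0.5, adjusted p = 0.83).

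Socs2 also followed Il2ra in OT-II cells (r = 0.74, permutation p = 0.00055, adjusted p = 0.01; Spearman rho = 0.72, permutation p = 0.00117, adjusted p = 0.0191), with r = 0.58 without the 2 farthest libraries. Socs1 moved with Socs3 there (r = 0.81, permutation p = 0.00035, adjusted p = 0.01; Spearman rho = 0.76, permutation p = 0.00065, adjusted p = 0.0135), and r was 0.69 without the 2 farthest. pGal library 9 was the lowest of its group for both, as for Pim2, and the separate OVA sets named for Pim1 also differ in these genes. Socs1 and Pim2 gave r = 0.82 (permutation p = 0.00057, adjusted p = 0.01; Spearman rho = 0.80, permutation p = 7e-05, adjusted p = 0.00357), falling to 0.67 without the 2 farthest. For Socs3 and Pim2 r was 0.78 (permutation p = 0.0009, adjusted p = 0.0131; Spearman rho = 0.71, permutation p = 0.00066, adjusted p = 0.0135) and 0.50 without the 2 farthest. The other 3 involve Pim1, whose OVA libraries in OT-II cells form separate sets, and no r over all libraries is given for them.

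In OT-I cells Socs3 followed Pim1 (r = 0.84, permutation p = 1e-05, the smallest the resamples can give, adjusted p = 0.00102; Spearman rho = 0.79, permutation p = 0.00014, adjusted p = 0.00476). It was 0.76 without the 2 farthest libraries. Total counts and the marker transcripts of other cells differ between these libraries, and their part in the relations was not tested.

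**Figure D4:**
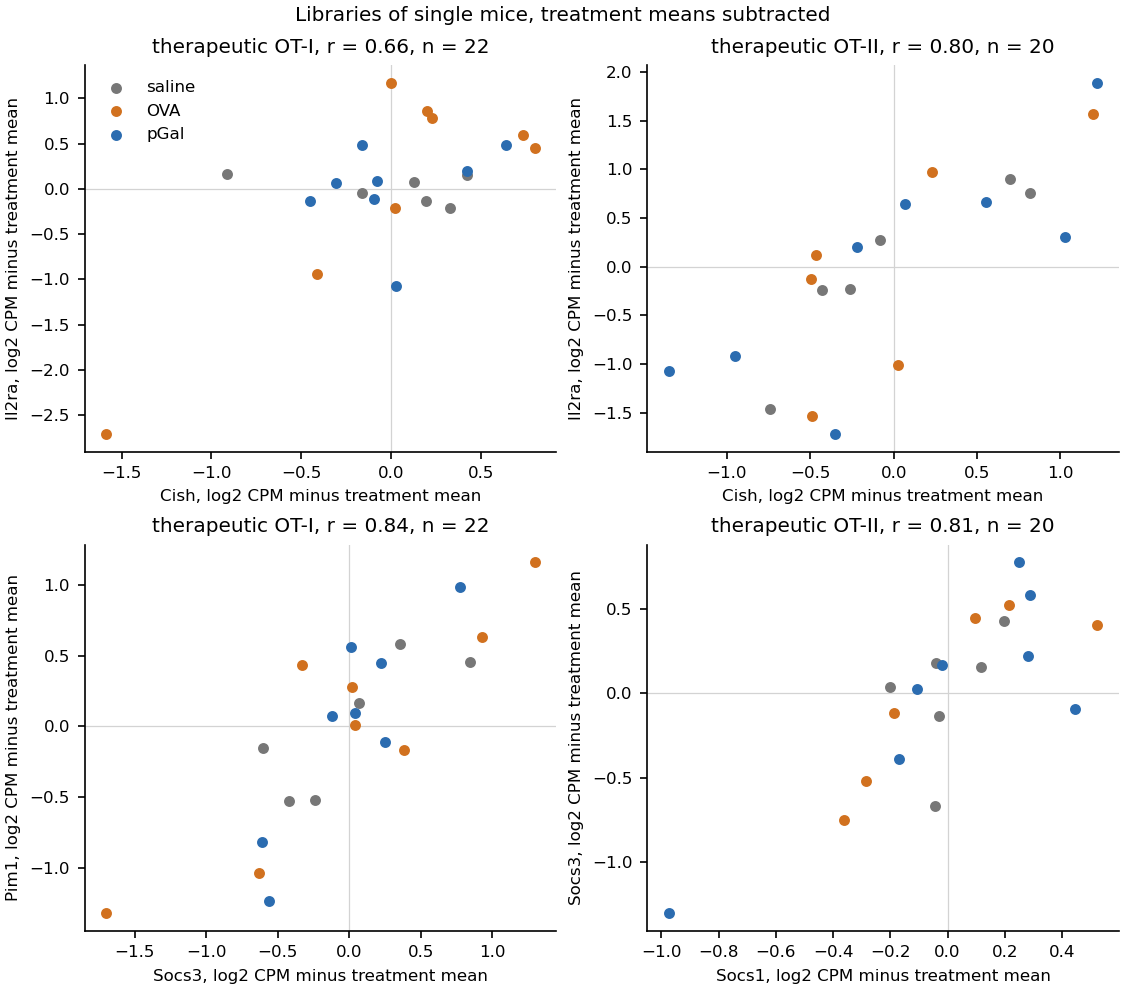
Log2 CPM of pairs of genes in therapeutic libraries after subtraction of the treatment mean (both axes): Cish and Il2ra in OT-I and OT-II cells above, Socs3 and Pim1 in OT-I cells and Socs1 and Socs3 in OT-II cells below. Points are libraries of 1 mouse, coloured by treatment; the OT-I relation of Cish and Il2ra leans on 1 OVA library low in both.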

How the data were processed

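Expression was measured by RNA sequencing (SmartSeq version 4, per the labels' protocols) in 82 libraries. The authors deposited 3 gene tables of estimated counts, for which the submitters' processing notes name bcl2fastq, kallisto 0.46.1 and GRCm38; the sources used here do not give how transcripts were summed or rounded. The deposited estimated counts are whole numbers and were used as they stand. The 77 genes missing from a table were left out, as were 11 therapeutic libraries whose Cd4 and Cd8a levels went against their label. Gene positions and lengths came from GENCODE M21.

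Genes passing filterByExpr were scaled by TMM factors and fitted with robust quasi-likelihood models (edgeR 4.0.16, R 4.3.3). Each experiment and cell type was fitted alone over its 3 treatments, with a batch term in the prophylactic fits, and pairs of these were joined to test differences between them. Benjamini-Hochberg adjusted p-values under 0.05, over all genes of a fit, made a call. Printed levels are CPM with TMM factors over all libraries; Cd4, Cd8a, Cd79a and marker sums have no such factors. The fits were tested on simulated data. Library relations used log2 CPM (prior count 1) and 100000 resamples.

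The text names the 6 genes, called genes of the lists (up to 4 per list and contrast by smallest p, with the rest named after their values were seen), receptors of the main cytokines, and for each of the 6 the 2 genes of most similar group means among those reaching 10 CPM in a group. Members and lists were chosen with earlier results of these data known. The labels do not say that equal replicate numbers share a mouse or a day. Between treatments, same-numbered libraries deviated together (correlation over 0.1) in 3 of 15 pairs in prophylactic OT-I, 3 of 13 in prophylactic OT-II, 6 of 15 in therapeutic OT-I and 4 of 13 in therapeutic OT-II cells, so the numbers were not taken as pairs. Same-numbered OT-I and OT-II libraries did so in 10 of 14 prophylactic pairs (median 0.169, against -0.098 for other numbers) and 16 of 19 therapeutic pairs (0.251 against -0.0375); some of these may share mice, which the labels do not state. Nothing says that the prophylactic pools came from separate transfers, and p-values measure the spread between libraries only. Reads were amplified without molecular identifiers. Alternatives were RLE factors, DESeq2 1.42.0, voom (limma 3.58.1), no filter, no batch term, single batches, a replicate block, all libraries as labelled, libraries at or under 100 CPM of Cd79a, OT-I libraries under 100 CPM of Cd4, and leaving out each library, though not in the differences between experiments. In the therapeutic experiment, leaving out single libraries and, for treatments, the Cd79a limit were chosen after seeing the data.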

Additional observations from a re-analysis of the deposited data

Results flagged for a closer look

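Of the 72 sets of values (6 genes in 12 groups), 7 had 1 library far from the others of its group, by Dixon's criterion; chance gives about 1 in 20. In prophylactic OT-II saline libraries, Socs3 was 388 CPM in library 1 of batch 1, against 191 CPM in the next. Pim1 was 64.4 CPM in prophylactic OT-II pGal library 3 of batch 1, which is rich in B cell and myeloid transcripts, and the next was 32.4 CPM. Pim1 was 21.1 CPM in prophylactic OT-I pGal library 2 of batch 2, below the others at 42.6 CPM or more, and 107 CPM in therapeutic OT-II saline library 4, above the next at 59.4 CPM. Cish was 27.4 CPM in therapeutic OT-II OVA library 2, which has 113 CPM of Cd79a, against 14.0 CPM in the next. Without that library the OVA difference of Cish from saline was -2.86 on the log2 scale (edgeR adjusted p = 0.00231). Pim2 was 33.8 CPM in therapeutic OT-II pGal library 9, below the others at 108 CPM or more. Socs2 was 15.7 CPM in therapeutic OT-I saline library 8, against 11.7 CPM in the next.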

How the results depend on the processing

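Of the 6 genes, the number called was as follows, with the main edgeR analysis first. A number in brackets after a count is the number called among all genes tested. OVA against saline in prophylactic OT-I cells gave 0 (744), but 1 (717) with RLE factors and 3 (1356) with DESeq2. It gave 1 (490) without libraries above 100 CPM of Cd79a, and 0 to 2 when single libraries were left out. OVA against saline in prophylactic OT-II cells gave 0 (23), and 1 (147) with DESeq2. pGal against saline in prophylactic OT-II cells gave 2 (1655), then 0 (0) in batch 2 alone, 3 (1740) in batch 1 alone and 3 (2470) with DESeq2. It gave 3 (2067) without the Cd79a-rich libraries, and 2 to 3 when single libraries were left out. pGal against OVA in prophylactic OT-II cells gave 0 (264), and 2 (370) in batch 1 alone. In batch 2 alone the log2 values of Socs1 (0.070) and Cish (0.45) were above 0, against -0.38 and -0.44 over both. OVA against saline in therapeutic OT-I cells gave 1 (100), then 0 (26) as labelled, 2 (367) with DESeq2 and 2 (139) with voom. It gave 1 to 2 when single libraries were left out. OVA against saline in therapeutic OT-II cells gave 2 (219), then 1 (69) as labelled and 1 (87) without the libraries above 100 CPM of Cd79a. It gave 1 to 2 when single libraries were left out. pGal against saline in therapeutic OT-II cells gave 0 (1), and 2 (169) with DESeq2. OT-I against OT-II in prophylactic saline cells gave 3 (2691), then 4 (3134) with DESeq2 and 4 (2680) without the Cd79a-rich libraries. It gave 2 to 4 when single libraries were left out. In therapeutic saline cells it gave 2 (1418), then 0 (0) as labelled, and 1 to 2 when single libraries were left out. The difference between experiments in the OVA response of OT-II cells gave 0 (15), and 1 without the libraries above 100 CPM of Cd79a. For that last count the number among all genes is not given here, so the call has no background.

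With a replicate block, the number called after OVA in therapeutic OT-I cells was 0 of the 6, and 24 of all 14581 genes. Cish then had a log2 value of -1.24 (edgeR adjusted p = 0.0656). The block changed no other call of the 6 genes between treatments or between cell types in saline; it was fitted although the numbers are not known to pair libraries. Under other settings, apart from single libraries left out, 25 values of treatment contrasts, 17 of differences between responses and 1 between cell types changed sign; none was called under either setting. At 4 to 8 libraries per group and this spread, a p that misses the threshold does not show that levels were equal.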
